A study of Saccharomyces cerevisiae with 12 samples.

Results

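The cell wall of *Saccharomyces cerevisiae* is watched by a small set of plasma membrane proteins, and the transcripts of 5 of their genes, *WSC2*, *WSC3*, *WSC4*, *MID2* and *MTL1*, are described here. The genes were taken by name from the platform annotation, which gives 1 probe set to each, so that all 5 were measured among 5449 named genes. WT cells were BY4741, a haploid *MAT***a** laboratory strain with the alleles *his3*Δ1, *leu2*Δ0, *met15*Δ0 and *ura3*Δ0. The *sus1*Δ cells were the same strain with *SUS1* replaced by the *KanMX4* marker, so both strains carried the other 4 alleles. Each strain was grown in rich medium without or with 30 μg/mL Congo red (CR), a dye that binds chitin and disturbs wall assembly. The treatment is given as 3 h in the sample titles and in the study's methods for these arrays, and as 2 h in the series design. Each of the 4 groups held 3 GeneChip Yeast Genome 2.0 arrays, and the methods say that a culture was split before CR was added to a portion of it. Arrays of a strain with the same number were therefore taken as the 2 portions of 1 culture. Nothing says how many *sus1*Δ isolates were used.

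The sensors stand at the head of the cell wall integrity (CWI) pathway. Their extracellular parts are rich in serine and threonine, carry many mannose residues and reach into the wall, and they have short tails inside the cell. The pathway runs from the sensors through Rom2, an exchange factor that loads the small GTPase Rho1 with GTP. Rho1 activates the kinase Pkc1, which starts the MAP kinase cascade of Bck1, Mkk1, Mkk2 and Slt2, and Slt2 activates the transcription factor Rlm1. The Wsc proteins share a cysteine-rich domain at the outer end, which Mid2 and its relative Mtl1 lack. Mid2 is known as a sensor of CR and of mating pheromone stress, Wsc2 and Wsc3 as minor sensors beside Wsc1, Mtl1 as a sensor tied to glucose starvation and oxidative stress, and Wsc4 is the least studied of the group. The systematic names are YNL283C (*WSC2*), YOL105C (*WSC3*), YHL028W (*WSC4*), YLR332W (*MID2*) and YGR023W (*MTL1*), with coding lengths of 1131 to 1818 base pairs in the R64 annotation.

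The authors deposited log2 signals from RMA, in which background is corrected, arrays are normalized to each other and the probes for a transcript are combined into 1 value. Array medians were 9.08 to 9.16. *SUS1* read 7.90 to 8.66 on the WT arrays and 2.55 to 3.34 on the *sus1*Δ arrays. The 6 genes of *MAT***a** cells that were checked read 9.01 to 13.10, and *URA3*, *LEU2* and *MET15* read 2.57 to 4.44. *HIS3* read 9.48 to 10.17, an allele that removes only part of the gene. Of 4 *MAT*α genes, 2 were found by name. *STE3* read 5.17 to 5.76 on the WT arrays and 6.69 to 6.98 on the *sus1*Δ arrays, and *SAG1* read 8.13 to 8.57 over all arrays. The lowest 5% of probe sets ended at 4.53 to 4.80 on the WT arrays and at 5.36 to 5.49 on the *sus1*Δ arrays, which touches the results of *MTL1* below. Averaged over all arrays, *WSC2*, *MID2* and *WSC3* were brighter than 76.7%, 71.6% and 58.3% of the genes, *WSC4* than 14.8% and *MTL1* than 9.19%. Signals of different probe sets have no common scale, so these ranks describe how bright a probe set is, not how abundant its transcript, and differences were taken only within a gene.

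**Figure D1:**
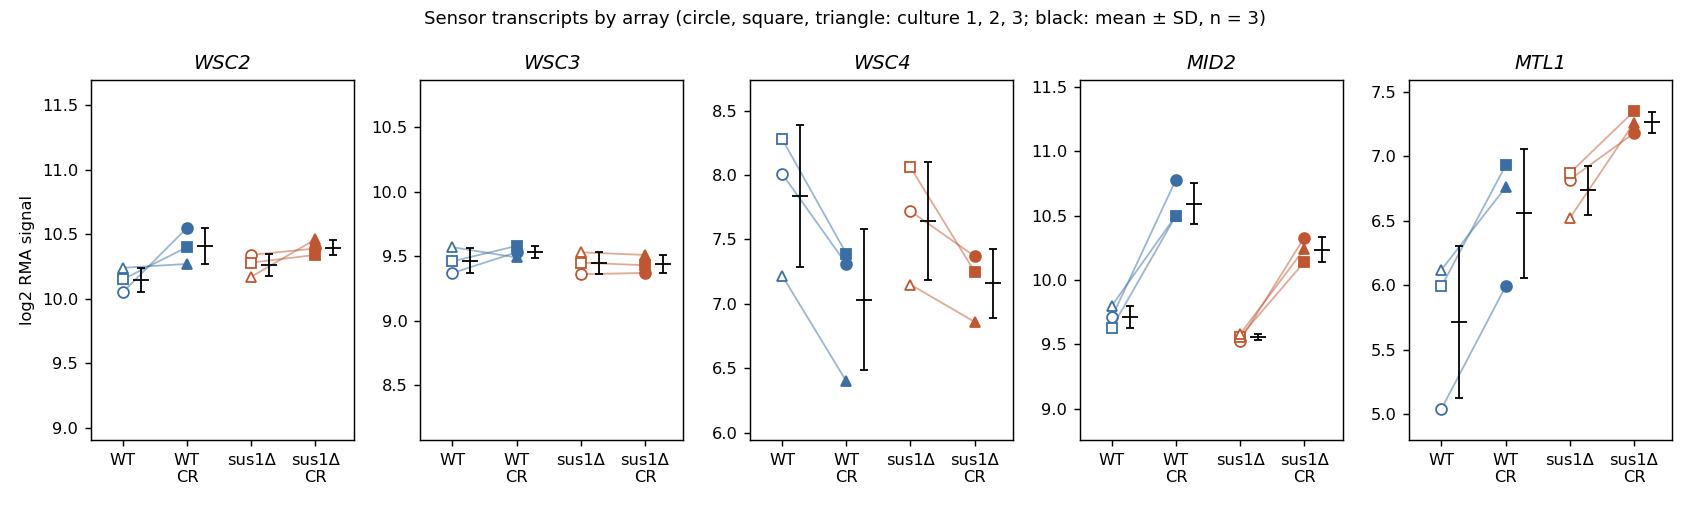
log2 RMA signal (y axis, the same span of 2.8 units in each panel) of the 5 sensor genes on the 12 arrays, by group (x axis). Symbol shapes mark cultures 1 to 3 of a strain, lines join the portions of 1 culture, and black bars are the mean ± SD of 3 arrays. *WSC2*, *MID2* and *MTL1* were higher and *WSC4* was lower in the treated portion of all 6 cultures.

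CR raised *MID2* in both strains and was followed by a lower *WSC4* signal and higher *MTL1* and *WSC2* signals in every culture, whereas *WSC3* stayed within 0.16 log2 units of its untreated portion. To ask whether CR changes the transcripts of its own sensors, treated and untreated cells of each strain were compared in limma, with p-values adjusted over all genes. A gene was taken as changed at an adjusted p under 0.05. In WT cells 1 of 5 sensors rose and none fell, where 18.4% of all genes changed, 9.4% upward and 9.01% downward. In the mutant, too, 1 of 5 rose and none fell, where 1.54% of all genes changed, 1.39% upward and 0.147% downward. The 18.4% and the 1.54% come from 1 fit that pools the spread of all groups. Replicates scattered more in WT cells (SD of 0.148 without and with CR, medians over genes) than in *sus1*Δ cells (0.0712 and 0.0784). With the compared groups alone, 325 genes passed in WT and 342 in mutant cells, with 1 sensor (*MID2*) and 2 sensors (*MID2* and *MTL1*). The gap between 18.4% and 1.54% was not seen there. When the culture entered the model as a block, 2 of 5 sensors rose and 1 fell in each strain. By that model 29.9% of all genes changed in WT cells (14.9% upward, 15% downward) and 3.58% in the mutant (2.53% upward, 1.05% downward). In WT cells the unblocked count, 1 of 5, was thus near the share of all genes. At an unadjusted p under 0.05, limma gave 1 lower sensor in WT and 0 in *sus1*Δ cells, and the methods' t-test gave 0 in both. No sensor reached the 2-fold limit of the methods after CR, a limit that 1.69% of all genes passed in WT and 0.496% in *sus1*Δ cells.

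*MID2* gave the clearest response. In untreated WT cells its 3 arrays read 9.71, 9.63 and 9.80, and in CR-treated WT cells they read 10.78, 10.50 and 10.50. In untreated *sus1*Δ cells they read 9.53, 9.56 and 9.58, and in treated *sus1*Δ cells 10.33, 10.14 and 10.24. Treated and untreated arrays did not overlap in either strain, as held for 27.5% of all genes in WT and 28.1% in *sus1*Δ cells. The log2 change was 0.88 (standard error 0.09, a ratio of 1.84, adjusted p = 6.25e-05 from limma) in WT cells. The mutant gave 0.68 (standard error 0.09, a ratio of 1.60, adjusted p = 0.00142 from limma). The changes within single cultures were 1.07, 0.87 and 0.70 in WT and 0.80, 0.58 and 0.66 in *sus1*Δ cells, so that the lowest WT culture lay inside the range of the mutant.

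*MTL1*, the gene of the Mid2 relative, moved the same way, on a dim probe set. It read 5.04, 5.99 and 6.12 in untreated WT cells and 5.99, 6.93 and 6.76 after CR. The mutant arrays read 6.82, 6.87 and 6.52 without CR and 7.18, 7.35 and 7.26 with it. The WT arrays overlapped by culture 1, which was low with and without CR, while the mutant arrays did not overlap. WT cells gave a log2 difference of 0.84 (adjusted p = 0.0589 from limma) and *sus1*Δ cells one of 0.53 (adjusted p = 0.59 from limma). Each had a standard error of 0.28, pooled over all groups, and neither passed the test. *MTL1* scattered more in WT cells (SD of 0.593 without and 0.501 with CR) than in the mutant (0.187 and 0.0852). With the compared groups alone and no block, the mutant passed (standard error 0.10, adjusted p = 0.0235 from limma) and WT cells did not. Over all arrays, the block lowered the standard error from 0.28 to 0.09, and both strains then passed (adjusted p = 0.000461 in WT and 0.0193 in *sus1*Δ cells from limma). When the culture was instead a random block, with an estimated correlation of 0.413, WT cells passed and the mutant did not (adjusted p = 0.00501 and 0.155 from limma). In the model without a block, the WT difference was 0.50 without WT untreated replicate 1 (adjusted p = 0.166 from limma), and it passed without WT untreated replicate 3 (1.04) or WT treated replicate 1 (1.13). Within cultures the differences were 0.95, 0.94 and 0.64 in WT and 0.36, 0.48 and 0.74 in *sus1*Δ cells.

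*WSC4* was the sensor with the opposite sign. Its arrays read 8.01, 8.28 and 7.22 in untreated WT cells and 7.31, 7.39 and 6.40 after CR. In the mutant they read 7.72, 8.06 and 7.15 without CR and 7.37, 7.25 and 6.86 with it. The groups overlapped in both strains, because culture 3 was the lowest in each group, but the treated portion was lower in all 6 cultures. Its WT cells differed by -0.80 on the log2 scale (standard error 0.33, adjusted p = 0.118 from limma) and -0.48 in *sus1*Δ cells (standard error 0.33, adjusted p = 0.723 from limma). In the blocked model the standard error was 0.10 and both passed (adjusted p = 0.000835 and 0.0402 from limma). With the random block WT cells passed and the mutant did not (adjusted p = 0.0149 and 0.27 from limma). Unblocked, the WT difference of *WSC4* was -0.48 without WT treated replicate 3 (adjusted p = 0.336 from limma) and -1.11, past the test, without WT untreated replicate 3 (adjusted p = 0.0388 from limma). The differences within cultures were -0.69, -0.89 and -0.82 in WT and -0.35, -0.81 and -0.29 in *sus1*Δ cells. For the mutant, the blocked calls of *MTL1* and *WSC4* were lost when any 1 of the mutant cultures was left out (adjusted p = 0.0664 to 0.182 and 0.0997 to 0.155 from limma), that of *MID2* without mutant culture 1 (adjusted p = 0.0505 from limma), and that of *WSC4* also without WT culture 2 (adjusted p = 0.0771 from limma). The log2 differences without a mutant culture were 0.42 to 0.61 for *MTL1*, -0.58 to -0.32 for *WSC4* and 0.62 to 0.73 for *MID2*. In WT cells both calls held without each of the 3 WT cultures.

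*WSC2* was higher in the treated portion of all 6 cultures, by smaller amounts, and *WSC3* in 3 of 6. *WSC2* read 10.05, 10.15 and 10.24 in untreated WT cells and 10.55, 10.40 and 10.27 after CR, without overlap. Its log2 difference of 0.26 (standard error 0.09, adjusted p = 0.0611 from limma) missed the threshold, and the single cultures gave 0.49, 0.25 and 0.03. Without both arrays of WT culture 3 it was 0.37 and passed (adjusted p = 0.0193 from limma), and in the blocked model without WT culture 1 it was 0.14 (adjusted p = 0.31 from limma). It also passed without WT treated replicate 3 alone (0.33) and with the random block (adjusted p = 0.0271 from limma). For the mutant, *WSC2* read 10.34, 10.28 and 10.17 without and 10.39, 10.34 and 10.46 with CR, and the groups overlapped (log2 difference 0.13, standard error 0.09, adjusted p = 0.719 from limma). Its mutant cultures gave 0.05, 0.06 and 0.28. *WSC3* read 9.37 to 9.57 in untreated and 9.49 to 9.58 in treated WT cells, and 9.36 to 9.53 and 9.37 to 9.51 in *sus1*Δ cells. Its log2 differences were 0.07 and -0.01 (standard error 0.08 each, adjusted p = 0.582 and 0.994 from limma), with 95% intervals of -0.10 to 0.24 and -0.18 to 0.16. *SLG1*, which encodes Wsc1 and is not one of the 5 genes, was looked up after the values had been seen. Its log2 differences after CR were 0.03 (WT) and -0.01 (mutant), each with a standard error of 0.13.

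**Figure D2:**
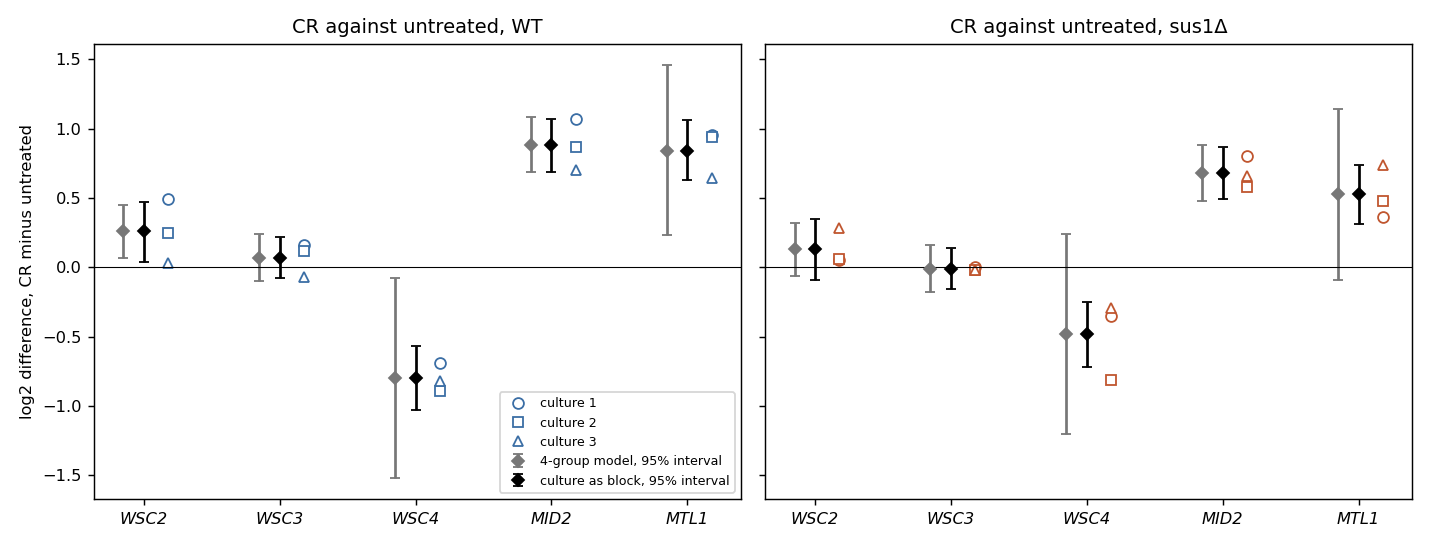
log2 difference between CR-treated and untreated cells (y axis) of each sensor gene (x axis) in WT (left) and *sus1*Δ cells (right). Grey and black diamonds are the estimates with 95% intervals from the model without and with the culture as a block, and open symbols are the 3 cultures. The intervals of *WSC4* and *MTL1* narrow with the block, to -1.03 to -0.57 and 0.63 to 1.06 in WT cells, while those of *MID2* stay at 0.69 to 1.08 and 0.69 to 1.07.

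Without Sus1 the treated signal of *MID2* was lower and the untreated signal of the dim *MTL1* probe set was higher than in WT cells. The *MTL1* difference did not pass after quantile normalization, and dim probe sets as a whole read higher on the mutant arrays. The 3 Wsc genes did not pass the test with or without CR. To ask what the mutation does to the sensors apart from CR, *sus1*Δ was compared with WT cells in each condition. Untreated, 1 of 5 sensors was higher and none lower, where 21.4% of all genes differed, 14.3% higher and 7.08% lower. With CR, 1 of 5 was lower and none higher, where 27.7% differed, 16.8% higher and 10.9% lower, so that both counts were near the share of all genes. At an unadjusted p under 0.05, limma gave 0 lower sensors without CR and 1 higher sensor with CR, and the methods' t-test gave 1 and 0. *MID2* differed by -0.36 on the log2 scale after CR (standard error 0.09, a ratio of 0.781, adjusted p = 0.013 from limma), with all 3 mutant arrays below all 3 WT arrays. Groups without overlap, in either direction, were seen for 45.3% of all genes in this comparison. Without CR its difference of -0.15 (standard error 0.09, adjusted p = 0.241 from limma) did not pass. The call after CR was lost without *sus1*Δ treated replicate 2 (log2 difference -0.31, adjusted p = 0.058 from limma).

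The untreated difference of *MTL1* was 1.02 (standard error 0.28, a ratio of 2.03, adjusted p = 0.0255 from limma), and it was the 1 sensor past the 2-fold limit, against 2.53% of all genes. After CR it was 0.70 and did not pass (standard error 0.28, adjusted p = 0.0828 from limma). The WT and mutant arrays did not overlap in either condition, as held for 41.7% of all genes in the untreated comparison. Dim probe sets as a whole read higher on the mutant arrays. For the 1362 dimmest genes, to which *MTL1* and *WSC4* belong, the median difference was 0.24 without and 0.18 with CR, against a median of 0.00 over the other 4087 genes in both conditions. The part of this shift in the result of *MTL1* was not tested. With the arrays quantile-normalized again over the named genes, the untreated difference was 0.42 (adjusted p = 0.257 from limma). Without WT untreated replicate 1, the lowest array, it was 0.68 (adjusted p = 0.0726 from limma), and the call was also lost without *sus1*Δ untreated replicate 1 or 2 (0.98 and 0.95, adjusted p = 0.0791 and 0.0883 from limma). The 3 Wsc genes did not pass in either condition. The differences without and with CR were -0.19 and 0.13 for *WSC4* (standard error 0.33 each, adjusted p = 0.719 and 0.802 from limma). For *WSC2* they were 0.12 and -0.01 (standard error 0.09 each) and for *WSC3* -0.02 and -0.10 (standard error 0.08 each).

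**Figure D3:**
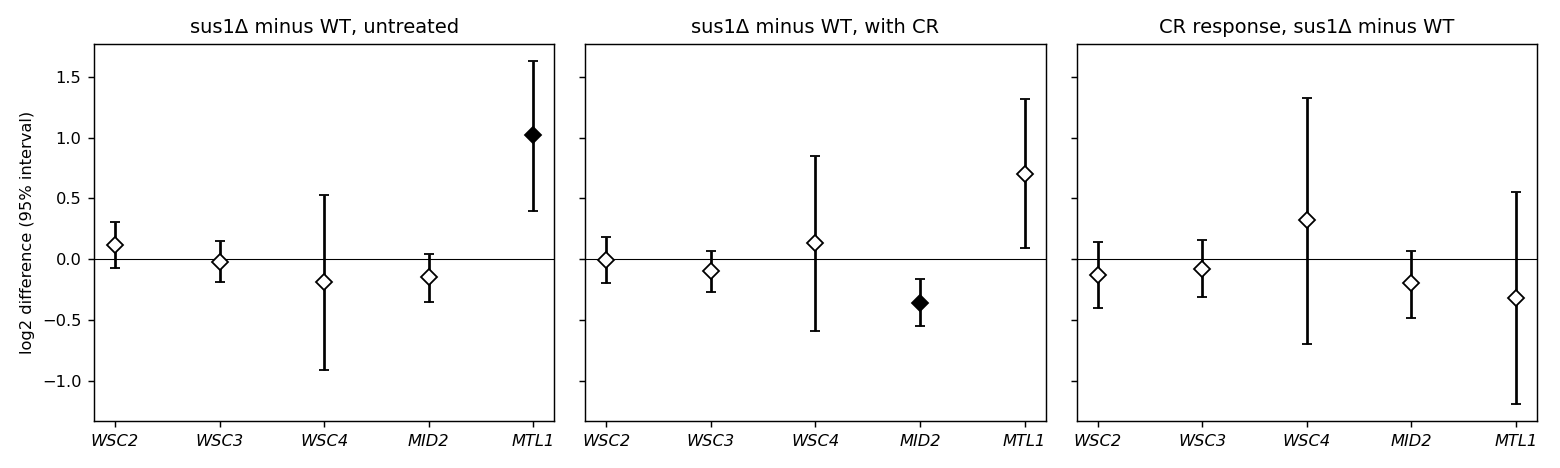
log2 difference between *sus1*Δ and WT cells (y axis, with 95% intervals from limma) for each sensor gene (x axis) without CR (left), with CR (middle) and for the CR response (right). Filled diamonds passed the test at an adjusted p under 0.05. These were *MTL1* without CR (1.02) and *MID2* with CR (-0.36), and none for the response.

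The responses to CR were then compared between the strains by the interaction term. None of the 5 sensors passed in limma, with 0 at an unadjusted p under 0.05 in limma and in a t-test with pooled variance, and 0.0734% of all genes passed. In the blocked model 1 sensor, *MTL1*, had an unadjusted p under 0.05 (-0.32, 95% interval -0.62 to -0.01), none passed after adjustment (adjusted p = 0.29 for *MTL1* from limma), and 0.826% of all genes did. For *MID2* the difference between the responses was -0.20 (standard error 0.13, 95% interval -0.48 to 0.07, adjusted p = 0.741 from limma). A loss of its WT response of 0.88 as a whole thus lay outside the interval, and a loss of 0.48 did not. The differences were -0.32 for *MTL1* (95% interval -1.19 to 0.55), 0.32 for *WSC4* (-0.70 to 1.33), -0.13 for *WSC2* (-0.40 to 0.14) and -0.08 for *WSC3* (-0.31 to 0.16). The response was nearer to 0 in *sus1*Δ than in WT cells for all 5 genes by these estimates, none of which passed the test, and for *MTL1* the sign of the difference turned after quantile normalization and without WT untreated replicate 1 (0.02 each).

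The 4 group means of each gene were put in order, from the lowest to the highest. For *MID2* they were untreated *sus1*Δ (9.56 ± 0.025), untreated WT (9.71 ± 0.084), treated *sus1*Δ (10.24 ± 0.0924) and treated WT cells (10.60 ± 0.162, SD over 3 arrays each). The lower pair of neighbours did not pass the test, although their arrays did not overlap, whereas treated *sus1*Δ exceeded untreated WT cells by 0.53 (adjusted p = 0.00164 from limma) and treated WT exceeded treated *sus1*Δ cells as given above. For *MTL1* the order was untreated WT (5.72 ± 0.593), treated WT (6.56 ± 0.501), untreated *sus1*Δ (6.74 ± 0.187) and treated *sus1*Δ cells (7.26 ± 0.0852, SD over 3 arrays each). No neighbours in this order passed the unblocked test over all arrays. The blocked model called both steps from untreated to treated cells of a strain as given above. The untreated mutant lay 0.18 above treated WT cells (adjusted p = 0.645 from limma). The highest and lowest means of *MTL1* differed by 1.54 (adjusted p = 0.00254 from limma). For *WSC4* the order was treated WT (7.03 ± 0.55), treated *sus1*Δ (7.16 ± 0.266), untreated *sus1*Δ (7.64 ± 0.46) and untreated WT cells (7.83 ± 0.551, SD over 3 arrays each). Of these neighbours none passed without the block, and treated against untreated *sus1*Δ cells passed with it. The means of *WSC2* ran from 10.15 in untreated to 10.41 in treated WT cells and those of *WSC3* from 9.44 in treated *sus1*Δ to 9.53 in treated WT cells, with both mutant means between those of the WT groups for *WSC2* and no neighbours that passed for either gene.

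Among themselves the sensors did not follow 1 pattern over the 12 arrays. Of the 10 pairs, *WSC2* with *MID2* had the highest Pearson r (0.716), *MID2* with *MTL1* had 0.252, and *WSC4* had negative values with the other 4 genes (-0.599 to -0.402). These values describe arrays that share strain, treatment and culture and carry no test. The same measure was taken against the other 5448 genes, and the 3 nearest to each sensor were named. For *MID2* they were *STP2*, a transcription factor gene of amino acid sensing (0.988), *YPS3*, which encodes a yapsin protease of the wall (0.977), and *MSG5*, which encodes a phosphatase that acts on Slt2 (0.974). For *MTL1* they were *SKN1*, a gene of β-1,6-glucan synthesis (0.966), the autophagy gene *ATG29* (0.961) and *SWP82*, which encodes a subunit of SWI/SNF (0.938). For *WSC4* they were the butanediol dehydrogenase gene *BDH1* (0.925), *CYC7*, which encodes a form of cytochrome c (0.925), and the endonuclease gene *HO* (0.886). *WSC2* was nearest to the autophagy gene *ATG23* (0.909), *YNR064C* (0.894) and the F-box gene *UFO1* (0.880). *WSC3*, which varied least, was nearest to *SNG1* (0.842), the glutathione transferase gene *GTT2* (0.828) and *POL31*, which encodes a subunit of DNA polymerase delta (0.815).

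The genes behind the sensors were taken from a list that runs from the exchange factors of Rho1 to Rlm1 and the phosphatases of Slt2. It was chosen, like the lists below, with earlier results of these data known, which limits what its counts show. Of these 21 genes, 8 rose and 1 fell in WT cells, beside 9.4% and 9.01% of all genes, while 6 rose and 0 fell in the mutant, beside 1.39% and 0.147% (limma, 0 lower at an unadjusted p under 0.05, and 1 by the methods' t-test). The list had a median log2 difference of 0.04 (WT) and 0.05 (mutant), against -0.02 and -0.03 over all genes. *ROM2*, whose product follows the sensors in the pathway, gained 0.33 log2 units in WT cells (standard error 0.08, adjusted p = 0.0109 from limma) and had a difference of 0.13 in *sus1*Δ cells (adjusted p = 0.66 from limma). *RHO1* rose by 0.53 in WT cells (adjusted p = 0.000165 from limma), with 0.25 in *sus1*Δ cells (adjusted p = 0.0775 from limma). *BAG7*, which encodes a GTPase-activating protein for Rho1, rose by 2.70 and 1.52, and the phosphatase genes *PTP2* and *MSG5* by 1.39 and 0.97 and by 1.17 and 0.85. *PTP3*, a phosphatase gene named after its value had been seen, was the one that fell in WT cells (-0.40, adjusted p = 0.0485 from limma). *PKC1* did not pass in either strain (-0.07 and 0.01). *SLT2* rose by 1.89 and 1.41 and *RLM1* by 1.25 and 0.92, all above the 0.88 and 0.68 of *MID2*. *KDX1*, which encodes a kinase-like relative of Slt2, rose by 4.14 and 3.17, the largest changes of the list. None of the 21 genes passed for the difference between the responses of the strains, beside 0.0734% of all genes. It was -0.21 for *ROM2* and -0.28 for *RHO1* (adjusted p = 0.672 and 0.322 from limma). At an unadjusted p under 0.05, 5 of the 21 had a negative difference in limma. In the blocked model *KDX1* alone passed (adjusted p = 0.0205 from limma), beside 0.826% of all genes. In untreated *sus1*Δ cells 5 genes of the list were higher and 1 lower, beside 14.3% and 7.08% of all genes, with *ROM2* higher by 0.34 (adjusted p = 0.00975 from limma) and *RHO1* lower by a log2 difference of -0.22 (adjusted p = 0.0265 from limma). After CR 3 were higher and 5 lower, beside 16.8% and 10.9% of all genes, among them *RHO1* (-0.49, adjusted p = 0.00027 from limma) and *SLT2* (-0.45, adjusted p = 0.00166 from limma).

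**Figure D4:**
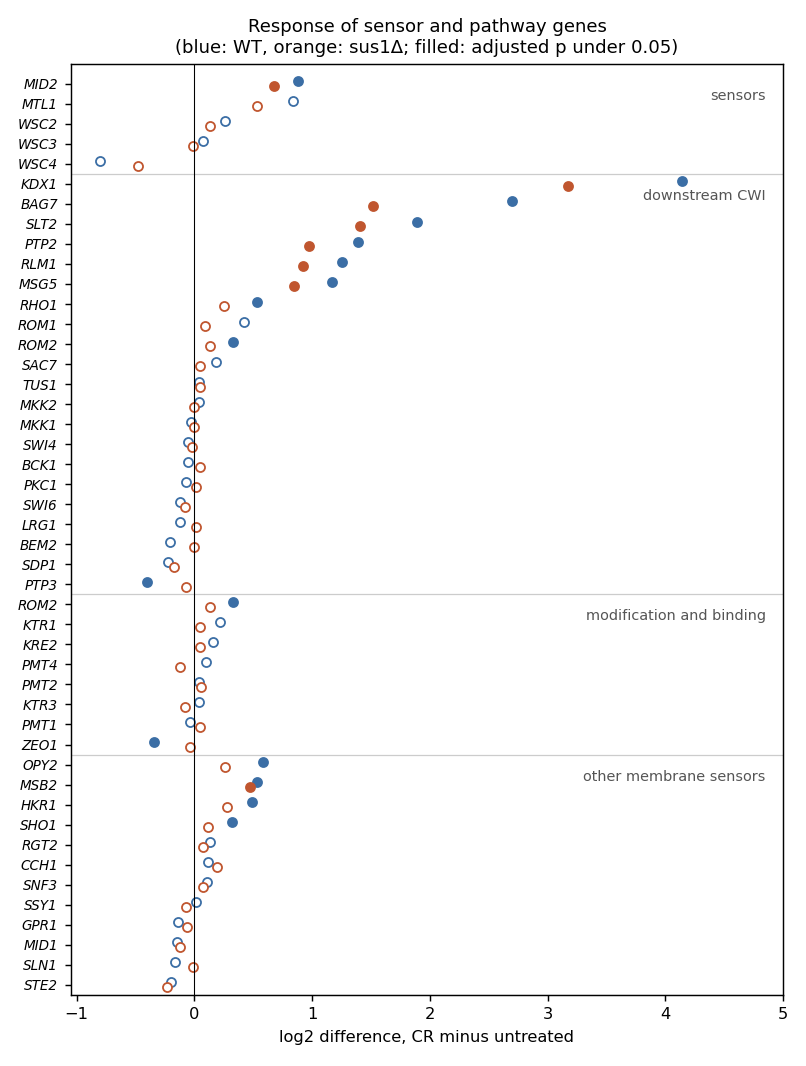
log2 difference between CR-treated and untreated cells (x axis) of the 5 sensor genes and of 3 lists of related genes (y axis), in WT (blue) and *sus1*Δ cells (orange), with filled symbols at an adjusted p under 0.05 from limma without the block. *KDX1* lies farthest right at 4.14 and 3.17, and *WSC4* farthest left at -0.80 and -0.48.

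Of 8 genes that modify the sensors or bind them, *ROM2* included, 1 rose and 1 fell in WT cells, near the 18.4% of all genes that changed. Neither passed with array weights, with the compared groups alone or by the methods' t-test after adjustment, which gave 0 of the 8. The one that fell was *ZEO1*, whose product binds Mid2 (-0.34, adjusted p = 0.014 from limma). Among mutant cells none passed in limma, beside 1.54% of all genes that changed. At an unadjusted p under 0.05 there were 0 in limma and by the methods' t-test, and *ZEO1* had a difference of -0.04. In untreated mutant cells 2 of the 8 were higher and 1 lower, beside 14.3% and 7.08% of all genes. *ZEO1* was lower (-0.30, adjusted p = 0.0241 from limma), and *ROM2* was higher as given above. *PMT4*, which encodes an O-mannosyltransferase, was higher by 0.41 (adjusted p = 0.035 from limma) and was named after its value had been seen. Of 12 genes of plasma membrane sensors of other pathways, 4 rose and none fell in WT cells, beside 9.4% and 9.01% of all genes (limma, 0 lower at an unadjusted p under 0.05 and by the methods' t-test, which called none after adjustment). They were *OPY2* (0.58), *MSB2* (0.53), *HKR1* (0.49) and *SHO1* (0.32), whose products act in the Sho1 branch of the osmotic stress (HOG) pathway, and they were named after their values had been seen. In *sus1*Δ cells 1 of the 12 passed, beside 1.54% of all genes that changed and 1.39% that rose. *MSB2* rose by 0.47 (adjusted p = 0.0366 from limma), and no other gene of this list passed. That call was lost without WT treated replicate 1 or 2 and without any 1 of the 6 mutant arrays, each of which left 0 genes of the list. This list had medians of 0.12 (WT) and 0.07 (mutant). For the difference between the responses of the strains, none of the 8 and none of the 12 genes passed, beside 0.0734% of all genes. That difference was 0.30 for *ZEO1* (adjusted p = 0.486 from limma).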

How the data were processed

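Per the labels and the methods of the study, 12 RNA samples were each run on 1 GeneChip Yeast Genome 2.0 array. The log2 signals deposited by the authors came from RMA in the Expression Console, with the version, and which arrays were normalized jointly, not given in the sources used here. Of 5739 probe sets, 5498 have 1 gene in the platform annotation and 241 stayed unnamed. The brightest of several probe sets stood for a gene, which left 5449 genes with symbols from the R64 annotation.

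In R 4.3.3, limma 3.58.1 fitted the 4 group means over all 12 arrays. Tests were two-sided, with Benjamini-Hochberg adjustment over all genes of a comparison, and intervals are 95%. As the methods state that each culture was divided, the culture (strain and number) was also fitted as a block. Deviations from group means correlated at 0.247 to 0.716 in the 6 pairs taken as 1 culture, at -0.595 to -0.00134 in 12 pairs within a strain whose numbers differed and at -0.0305 to 0.193 for the same number across strains. Because the deviations of a group cancel, the negative values within a strain follow from the positive ones and are no separate sign of pairing. Signals of replicate arrays correlated at 0.983 to 0.997. The number of arrays limits the precision.

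The alternatives changed the test, block, scaling, filter on dim genes, probe sets, variance model, arrays and threshold. The fits without and with the culture block were run on simulated data. These had independent noise, the same spread in every group and a change in treated WT cells alone. The simulation therefore did not check the block under paired cultures or the shared spread where groups differ. The sensors and the 3 lists were chosen with earlier results of these data known. All 5 sensors were named, with *ROM2*, *RHO1*, *PKC1*, *SLT2*, *RLM1*, *ZEO1*, at most 4 genes of a list and comparison that passed the test at 2-fold, and the 3 genes nearest in pattern to each sensor. *SLG1*, *PTP3*, *PMT4*, *OPY2*, *MSB2*, *HKR1* and *SHO1* fall outside this rule and were named after their values had been seen. No protein or promoter sequences were used here.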

Additional observations from a re-analysis of the deposited data

How the results depend on the processing

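The response of *MID2* to CR kept its direction under all alternatives. With the culture as a block, *WSC4* and *MTL1* were added to the sensors past the test in each strain, which gave 3 sensors each, and the block changed no other sensor's call. All genes past the test then numbered 1631 in WT and 195 in *sus1*Δ cells, and 45 for the difference between the responses, against 1003, 84 and 4 without the block. The methods' t-test with Benjamini-Hochberg adjustment gave 0 sensors for CR in WT and for both strain comparisons, with 87 genes for CR in WT, 249 and 604 for the strains without and with CR and 0 for the difference between responses. The 2-fold limit left 0 sensors for CR in either strain and for the strains with CR. For CR in WT, median centring, leaving out dim genes, a trended robust variance and leaving out WT culture 3 gave 2 sensors each. Array weights gave 626 genes for WT and 545 for mutant cells after CR, and 1 for the difference between responses. The compared groups alone gave 325 genes in WT, and 342 genes and 2 sensors in *sus1*Δ cells, and leaving out WT culture 3 gave 174 genes there. Without CR, quantile normalization and leaving out dim genes left 0 sensors between the strains, the latter with 707 genes, and it removed *WSC4* and *MTL1* themselves. With CR, the replicate number as a block and array weights gave 2 sensors between the strains. Quantile normalization and median centring each gave 2 genes for the difference between responses.

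The following were added after the data had been seen. The culture as a random block gave 4 sensors and 1704 genes for WT and 1 sensor and 213 genes for mutant cells after CR, and 87 genes for the difference. The block with quantile normalization gave 3 sensors in each strain, with 1717, 260 and 24 genes. The block without WT culture 3 gave 4 sensors and 1505 genes in WT, 3 sensors and 461 genes in *sus1*Δ cells and 75 genes for the difference. Without WT culture 1 or 2, or any mutant culture, it gave 3 sensors in WT. For CR in *sus1*Δ cells it gave 3 sensors and 223 genes without WT culture 1, 2 sensors and 158 genes without WT culture 2, and 0 sensors without mutant culture 1. The difference then had 28 genes without WT culture 1, 1 without WT culture 2 and 0 without any mutant culture.

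Leaving out 1 array at a time gave 1 to 3 sensors for WT and 1 to 1 for mutant cells after CR, 0 to 1 and 0 to 2 for the strains without and with CR, and 0 to 0 for the difference between responses. The counts of all genes were 853 to 995, 52 to 112, 573 to 1367, 974 to 1732 and 1 to 7 in the same order. Signs turned only for values that did not pass the test. They were *WSC3* between the untreated strains with array weights (0.00) and without WT culture 3 (0.03), *WSC4* between the treated strains after quantile normalization (-0.16) and without WT culture 3 (-0.19), and *MTL1* in the difference between responses after quantile normalization without and with the block (0.02 each). Without 1 array they also turned for *WSC3* after CR in *sus1*Δ cells (-0.05 to 0.03) and between the untreated strains (-0.07 to 0.03), *WSC4* between the untreated (-0.50 to 0.06) and treated strains (-0.19 to 0.30), *WSC2* between the treated strains (-0.08 to 0.06) and *MTL1* in the difference between responses (-0.60 to 0.02). The cause of these changes was not tested, and dim signals limit *WSC4* and *MTL1*.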
